A study of Mus musculus with 16 samples.

Results

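Kaede-red cells are the myeloid cells that were already inside the tumour when it was photoconverted and were still there at harvest. Bulk RNA-seq of these retained cells was compared between 72h and 24h after photoconversion, taking every library labelled Kaede-red: 8 of the 16 libraries of the series, 4 at each time. All libraries came from subcutaneous tumours of the colorectal line MC38-Ova in female C57BL/6 mice carrying the Kaede transgene, with no treatment, and all carry the same batch label. Sorted cells were alive, CD45+, CD11b+ and Kaede+ and lacked TER119 and NK1.1, so the sort does not separate monocytes, macrophages, neutrophils and dendritic cells. The remaining libraries are 4 Kaede-green libraries per time, from cells that were not in the tumour at photoconversion, and they entered the same fit, so that they also shaped its filter and its estimate of the spread. Their own values are used to place single genes and to ask whether a change with time differed between the colours. The study describes its libraries as tumours of independent mice, but whether a Kaede-red and a Kaede-green library shared a tumour is not given by the labels, and the fit treated all 16 as independent. A tumour was harvested once, so 24h and 72h libraries came from different mice, the tumours at 72h were also older, and time since photoconversion cannot be told apart from tumour age. Whether cells that left or died changed the retained pool was not tested. In bulk samples, fewer cells of a type and less RNA per cell cannot be told apart.

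Violet light turns the Kaede protein from green to red, so red fluorescence records that a cell was present in the lit tissue. Tumour macrophages are largely replenished by blood monocytes, which lose monocyte genes and gain macrophage genes as they mature, next to a smaller pool of resident-like macrophages. Hypoxia, interferons and NF-kB signalling are among the inputs known to shape gene expression in these cells.

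The sorted cells were checked against marker genes. The 12 myeloid markers summed to 795 to 1273 CPM (counts scaled to library size) in the 24h libraries and 1395 to 1674 CPM at 72h, and every one of them was detected in every Kaede-red library. T and NK cell markers summed to 4.30 to 11.8 CPM at 24h and 6.05 to 11.2 CPM at 72h, and dendritic cell markers to 12.2 to 16.5 and 14.9 to 18.2 CPM. Neutrophil markers summed to 19.1 to 25.6 CPM at 24h and 29.0 to 35.5 CPM at 72h without overlap, and endothelial markers to 20.3 to 23.5 and 23.6 to 37.4 CPM, also without overlap. Erythroid markers, of cells that the TER119 gate removes, varied widely, with 1.93 to 11.4 CPM among the 24h and 0.0632 to 11.3 CPM among the 72h libraries, and muscle and fat cell markers stayed at or below 3.75 CPM. Markers of B cells, eosinophils and mast cells, and tumour epithelial cells stayed at or below 1.66 CPM. Fibroblast markers summed to 49.8 to 128 CPM at 24h and 42.1 to 48.9 CPM at 72h. Total counts ran from 3216858 to 13009918 at 24h and from 4121410 to 15423085 at 72h. The ribosomal RNA gene Rn45s took 66.2, 68.2, 83.1 and 84.9% of the counts in 24h replicates 1 to 4 and 70.3, 66.2, 73.8 and 55.8% at 72h, which left between 758192 and 5472477 counts for all other genes. The 24h libraries therefore formed 2 pairs, replicates 1 and 2 with the lower and replicates 3 and 4 with the higher Rn45s share, and results are also given without replicates 3 and 4. In that fit 0 members were called, in either direction, in all but 4 of the gene lists described below. These 4 were the glycolysis and hypoxia genes with 3 called lower (Bnip3, Arg1 and Ddit4), and the tolerance and checkpoint genes (Arg1), the iron and haem genes (Slc40a1) and the ER stress and heat shock genes (Hspa1b) with 1 called lower in each.

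Many genes differed between the times in retained cells in the main fit. Of 9642 genes tested, 837 (8.68%) were called at an adjusted p-value under 0.05, 474 (4.92%) higher and 363 (3.76%) lower at 72h. The median size of a called change was 0.92 on the log2 scale, 337 called genes changed by at least 1, and called values ran from -4.42 for Gm16973, a gene model with no known function, to 3.01 for Ace, which encodes angiotensin-converting enzyme. At 72h all 4 libraries lay above all 4 at 24h for 1139 genes (11.8%) and below them for 845 (8.76%). Over all genes tested, the median log2 fold change was -0.01 and time took 32.2% of the variance among the 8 libraries (one-sided exact permutation test over the 70 relabellings, p = 0.0286, the smallest they can give).

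**Figure D1:**
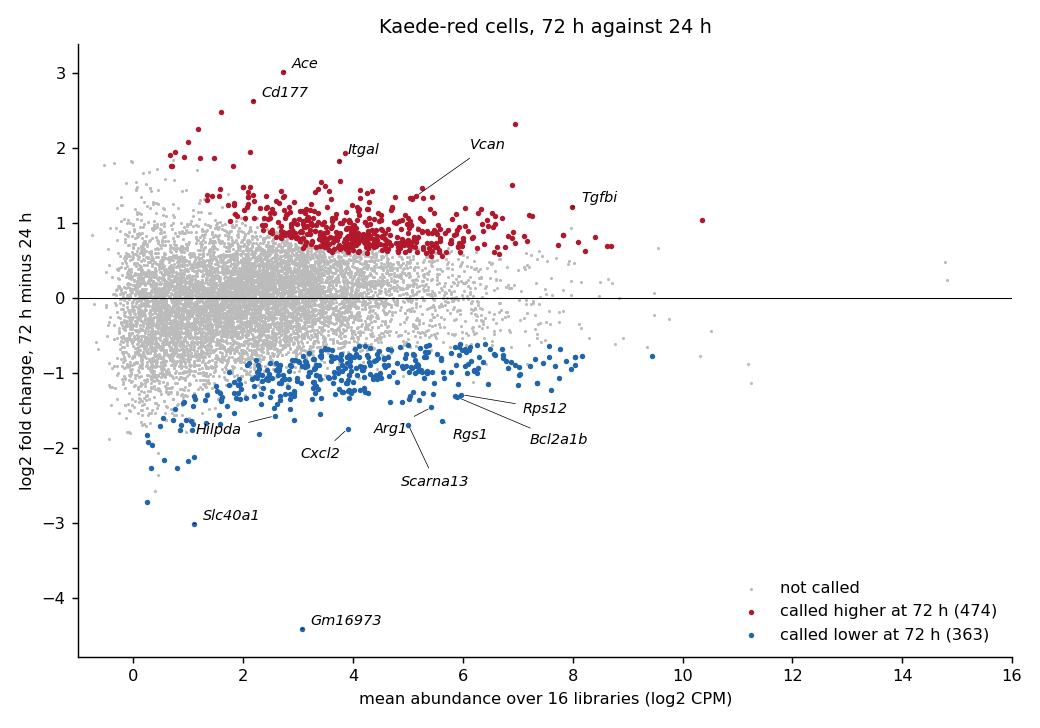
Each point is a gene tested in Kaede-red cells, with its mean abundance over all 16 libraries (log2 CPM) on the x axis and its log2 fold change from 24h to 72h on the y axis. The 474 red and 363 blue points are the genes called higher and lower at 72h, with Ace at 3.01 the highest and Gm16973 at -4.42 the lowest, and the ribosomal RNA gene Rn45s lies beyond the right edge.

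How many genes were called rested on the scaling and on which libraries were in the fit. With the Rn45s share as a covariate 110 genes were called, and with scaling by library size only 9. With the Kaede-red libraries alone 1604 genes were called, 835 of them among the 837. Without 24h replicates 3 and 4 together 9 genes were called, whereas without replicates 1 and 2 together 843 were called. In the first of these fits 836 of the 837 calls kept their sign, with a median size of 0.75 on the log2 scale against 0.92. The 837 had been called on data that included the libraries of that fit. Their kept signs are therefore no separate support for the calls. Leaving out single libraries gave 280 calls without 72h replicate 1, 296 without 24h replicate 3, 328 without 24h replicate 4, 394 without 72h replicate 4 and 537 without 72h replicate 2. A group of 213 genes, 138 higher and 75 lower, was called in the full fit and in all 8 fits that left out 1 library, and 167 of them (115 higher, 52 lower) were also called after correction for gene length and GC content.

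The 9 genes called without 24h replicates 3 and 4 were Gm16973, Rgs1, Ace, Slc40a1, Bnip3, Itgal, Arg1, Hspa1b and Ddit4, and all of them were also called with all 8 libraries. Rgs1, which encodes a regulator that dampens G protein and chemokine receptor signalling, stood at 91.1, 116, 83.3 and 126 CPM in 24h replicates 1 to 4 and at 37.0, 29.6, 33.3 and 33.4 CPM in 72h replicates 1 to 4. Its 2 groups were far apart, and the 8 Kaede-green libraries, at 10.2 to 35.3 CPM, lay in or below the range of the 72h libraries. Rgs1 fell by 1.64 on the log2 scale (SE 0.21, adjusted p = 4.9e-05), with a log2 fold change of -1.67 without replicates 3 and 4.

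Ace stood at 2.37, 1.22, 1.09 and 0.452 CPM at 24h and at 12.1, 9.30, 11.3 and 8.66 CPM at 72h. All 24h libraries were low, while the Kaede-green libraries held 4.86 to 11.3 CPM. The rise was 3.01 on the log2 scale (SE 0.35, adjusted p = 6.3e-06), and 2.44 without replicates 3 and 4. Itgal, the alpha chain of the leukocyte integrin LFA-1, had 7.47, 6.93, 6.17 and 4.07 CPM at 24h and 23.6, 21.96, 21.93 and 18.8 CPM at 72h, again with no overlap, a rise of 1.82 (SE 0.25, adjusted p = 6.3e-05). Ace and Itgal lay below the abundance that the rule for named genes asks for and were named after their values were seen. Ace overlaps the gene model Gm11651.

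Arg1, the enzyme that degrades arginine and a marker of suppressive tumour myeloid cells, was at 83.0, 89.5, 62.8 and 88.5 CPM at 24h and at 30.1, 24.4, 41.6 and 22.7 CPM at 72h. Each 72h library was lower than each 24h library, and the fall was 1.46 on the log2 scale (log2 fold change -1.46, SE 0.28, adjusted p = 0.0017). Slc40a1 encodes ferroportin, the iron exporter of macrophages. It had 10.2, 3.04, 6.17 and 1.81 CPM at 24h and 0.822, 0.656, 0.454 and 0.569 CPM at 72h, so that the 24h libraries were high but spread widely (log2 fold change -3.01, SE 0.55, adjusted p = 0.0012). Hspa1b, an inducible heat shock protein that shares reads with its near-identical copy Hspa1a, was high in 24h replicates 1 and 2 (37.2 and 33.2 CPM) and not in replicates 3 and 4 (14.0 and 19.4 CPM), against 12.2, 10.5, 18.9 and 8.82 CPM at 72h. Its groups overlapped, and its call (-1.08, adjusted p = 0.022) was lost without 24h replicate 1 or 2 or 72h replicate 1, 2 or 4 (adjusted p up to 0.0891).

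Gm16973 had the lowest fold change and groups that overlapped, with 10.4, 10.7, 19.8 and 0.969 CPM at 24h and 0.391, 0.479, 1.21 and 0.295 CPM at 72h. The model overlaps Mphosph8, and it was named after its values were seen.

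**Figure D2:**
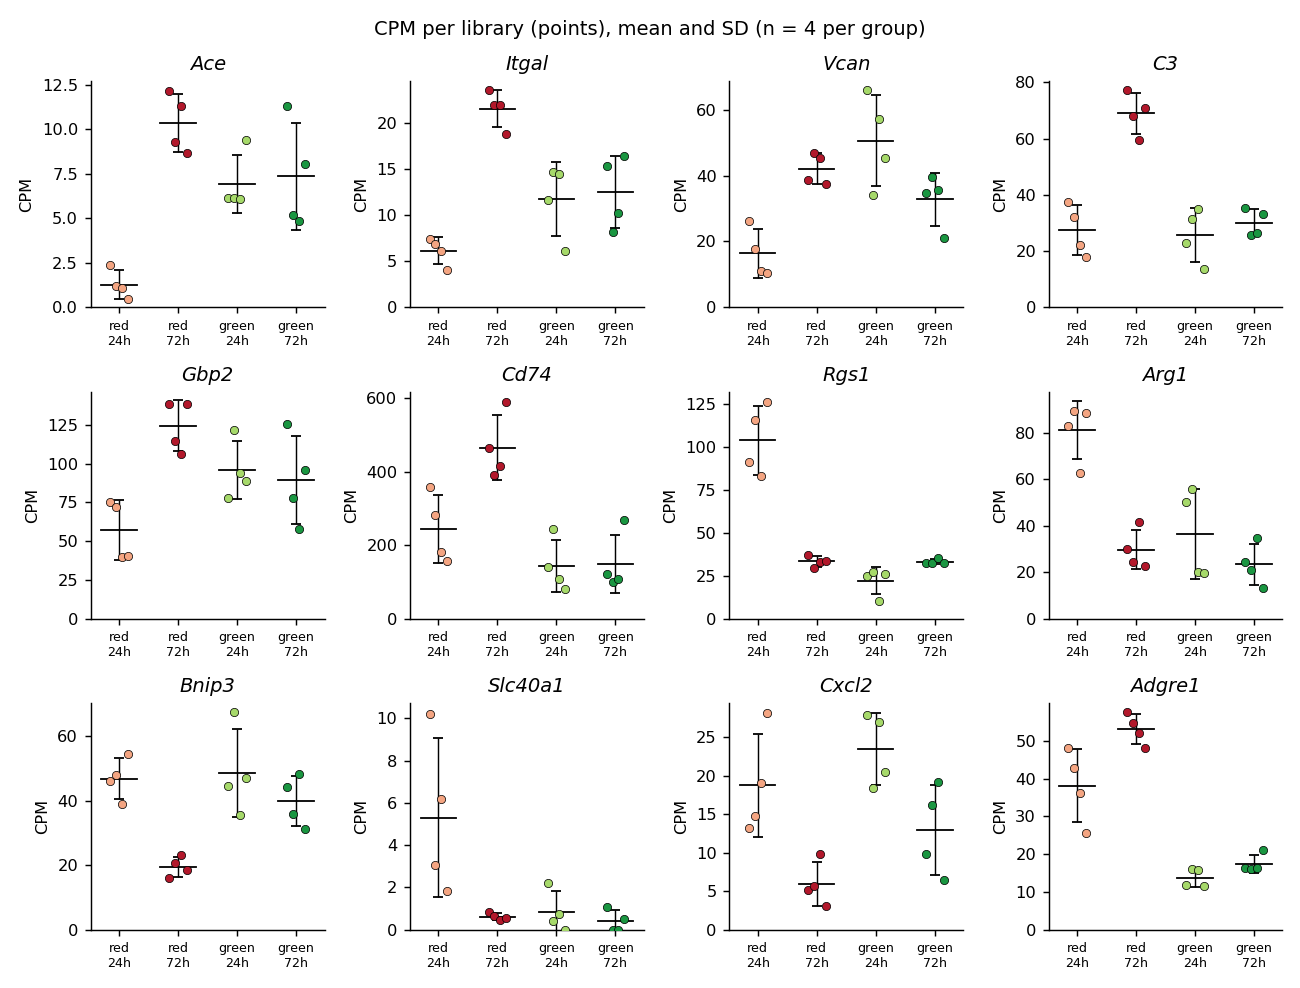
CPM of 12 genes in each library (points), with the mean (line) and SD (bars) of the 4 libraries per group, each panel from 0. Kaede-red libraries at 24h lie apart from those at 72h for Ace, Itgal, Vcan, C3, Gbp2, Rgs1, Arg1, Bnip3, Slc40a1 and Cxcl2, and also for Cd74 and Adgre1, whose tests missed the threshold.

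A part of the genes of circulating monocytes rose in retained cells. Of 20 tested monocyte genes, 9 were called higher, 0 were called lower and 17 had a log2 fold change above 0, with a median of 0.67 against -0.01 over all genes. Without 24h replicates 3 and 4 the median was 0.37, and with offsets for length and GC content it was 0.66 with 9 calls. Vcan, the matrix proteoglycan versican that monocytes make, went from 26.4, 17.8, 11.1 and 10.3 CPM to 38.6, 46.9, 45.2 and 37.5 CPM without overlap (1.35, SE 0.25, adjusted p = 0.0013). The haemoglobin scavenger gene Hp rose by 1.56, Cd177 by 2.63 from a low level (0.323 to 2.11 CPM at 24h), the integrin chain Itga4 by 1.20 and the matrix gene Fn1 by 0.89. Neutrophils also express Hp and Cd177. The summed neutrophil markers were higher at 72h as given above, and so were the summed myeloid markers. Of the 3 tested neutrophil markers 1 was called higher, the G-CSF receptor gene Csf3r (1.00, SE 0.22, adjusted p = 0.0043). Its mean went from 8.11 to 16.4 CPM, while the median of the whole neutrophil sum went from 23.4 to 31.4 CPM. The median log2 fold change of the 3 markers was 0.34. The part of neutrophils in the monocyte list was not tested. Ly6c2, which marks inflammatory monocytes, had 149, 148, 100 and 108 CPM at 24h and 169, 243, 196 and 175 CPM at 72h. These values did not overlap, but the test missed the threshold (0.63, SE 0.26, adjusted p = 0.13). Ccr2, the receptor for monocyte exit from marrow, had a log2 fold change of 0.09 (SE 0.19) and Cebpb one of 0.38 (SE 0.19, adjusted p = 0.23).

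Several adhesion molecules of leukocytes rose beside Itgal. Selplg, the selectin ligand PSGL-1, had 16.5, 15.1, 8.71 and 11.1 CPM at 24h and 38.0, 35.9, 28.7 and 33.7 CPM at 72h, a rise of 1.40 (SE 0.21, adjusted p = 0.00039) without overlap. Adgre5, which encodes the leukocyte receptor CD97, had 14.9, 18.7, 5.81 and 4.78 CPM at 24h and 30.6, 28.9, 31.8 and 28.0 CPM at 72h. It rose by 1.43 (SE 0.29), and by 0.79 without 24h replicates 3 and 4, its lowest libraries. The integrin chains Itgam (0.98), Itgb2 (0.81), Itgax (1.10) and Itgb7 (1.55) and the sialophorin gene Spn (1.22) were also called higher. Itgb7 and Spn were named after their values were seen. Itgam encodes CD11b, a marker on which the cells were sorted. Fcgr4, Nr4a1 and Treml4, which are tied to patrolling monocytes, were not called. Their log2 fold changes were -0.15 (SE 0.20), 0.20 (SE 0.20) and 1.43 (SE 0.64, adjusted p = 0.17) in that order. Fcgr4, Nr4a1 and Treml4 were named after their values were seen and do not stand for all genes of patrolling monocytes. Cx3cr1, which is also tied to these monocytes, was called higher (1.36, SE 0.36, adjusted p = 0.017). That call was lost without 24h replicate 2, 24h replicate 4 or 72h replicate 1. Genes of patrolling monocytes were not tested as a list. The part of such cells in the rises of Ace, Itgal and Spn was not tested.

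Zyx (1.33) and Fmnl1 (1.21), which act on the actin cytoskeleton, and the extracellular matrix genes Emilin2 (1.33) and Tgfbi (1.21) were among the largest rises at a log2 CPM of 4 or more without overlap. Tgfbi had 277, 242, 144 and 147 CPM at 24h and 543, 463, 399 and 471 CPM at 72h. The groups were apart even for the higher 24h libraries, replicates 1 and 2.

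Csf1r, C3, Tlr9 and Cybb, which act in macrophage survival and innate defence, rose as well. Csf1r, the receptor on which macrophages depend for survival, was at 62.1, 63.2, 39.6 and 32.0 CPM at 24h and at 108, 104, 107 and 106 CPM at 72h, with no overlap (1.11, SE 0.24, adjusted p = 0.0041). C3, the central complement component, was at 37.4, 32.0, 22.3 and 18.0 CPM at 24h and at 77.2, 68.1, 59.4 and 70.9 CPM at 72h (1.33, SE 0.23, adjusted p = 0.001). C3, Itgam, Itgax and Itgb2 were the 4 of 17 tested complement components and receptors called higher, and 0 were called lower (median 0.32). C1qa, part of the first complement component, had a log2 fold change of 0.11 (SE 0.20). Tlr9, the endosomal sensor of unmethylated DNA, gave the largest rise among genes at a log2 CPM of 4 or more whose groups did not overlap, from 34.8, 31.0, 20.3 and 20.4 CPM to 87.1, 72.4, 57.6 and 77.2 CPM (1.47, SE 0.28, adjusted p = 0.0017). Cybb, the catalytic subunit of the phagocyte NADPH oxidase, had 69.8, 72.9, 47.4 and 44.5 CPM at 24h and 138, 130.1, 110.1 and 136 CPM at 72h (1.13, SE 0.19, adjusted p = 0.00098). In the antioxidant and NADPH oxidase list 2 of 32 tested genes were called higher, Cybb and the oxidase regulator Rac2, and 1 lower, the lipid peroxide reductase Gpx4 (-0.92). The share called, 9.38%, was near the 8.68% of all genes tested. Rac2 lost its call without 24h replicate 3, 24h replicate 4 or 72h replicate 1, and Gpx4 without 24h replicate 2, 72h replicate 1 or 72h replicate 4, with adjusted p-values up to 0.0785 and 0.0846.

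Receptors for particles and Fc fragments split. Of 32 tested Fc and phagocytic receptor genes, 6 were called higher and 3 lower (median 0.01). The 6 became 2 without 24h replicate 3, 24h replicate 4 or 72h replicate 1, and 3 without 72h replicate 4. The kinase gene Syk, which relays Fc and lectin receptor signals, went from 18.7, 17.4, 10.7 and 14.9 CPM to 33.1, 29.9, 31.5 and 34.5 CPM (1.05, SE 0.21, adjusted p = 0.0023), and the HDL receptor gene Scarb1 rose by 1.06. The lectin receptor genes Clec4n (-0.91), Clec7a (-0.72) and Clec4d (-0.82) were called lower. These 3 calls did not hold without 24h replicate 3 (Clec4n), without 24h replicate 2, 24h replicate 4 or 72h replicate 1 (Clec7a), or in 7 of the 8 fits without a single library (Clec4d, all but 72h replicate 3), with adjusted p-values up to 0.0566, 0.0895 and 0.149.

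Genes of resident macrophages showed no common direction: of 21 tested, 2 were called higher and 1 lower, 11 lay above and 10 below 0, and the median was 0.02. Cx3cr1, the fractalkine receptor of resident macrophages and patrolling monocytes, had 5.27, 1.95, 2.90 and 0.969 CPM at 24h and 7.16, 7.09, 6.96 and 7.10 CPM at 72h. The later values were nearly equal and the earlier ones all lower but spread (1.36, SE 0.36, adjusted p = 0.017), and the call was lost without 24h replicate 2, 24h replicate 4 or 72h replicate 1 (adjusted p up to 0.101). Adgre1, which encodes F4/80, had 48.0, 42.7, 36.3 and 25.5 CPM at 24h and 57.6, 54.6, 52.0 and 48.1 CPM at 72h. The ranges only just missed each other, and the change did not pass the test (0.48, SE 0.19, adjusted p = 0.12). The lipid transfer protein gene Pltp was called higher (0.91) and the selenoprotein gene Sepp1 lower (-0.68). Pltp lost its call without 24h replicate 3, 24h replicate 4 or 72h replicate 4, and Sepp1 without any library but 24h replicate 4 (adjusted p up to 0.127 and 0.234). The mannose receptor gene Mrc1 (-0.21, SE 0.23) and the lipid-sensing regulator gene Pparg (0.37, SE 0.33) did not pass.

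Among 28 tested macrophage transcription factors, Runx3 (1.18), Zeb2 (0.76) and the retinoic acid receptor gene Rara (0.93) were called higher and Id2 (-0.76) lower, with 22 of 28 above 0 (median 0.39). Runx3 had 19.1, 16.3, 10.5 and 12.99 CPM at 24h and 38.0, 30.8, 20.7 and 44.0 CPM at 72h, and 72h replicate 3, its lowest, lay just above 24h replicate 1, the highest of its group. Zeb2 lost its call without 24h replicate 3 (adjusted p = 0.0629). Rara and Id2 did so in 6 of the 8 such fits, Rara in all but those without 24h replicate 1 or 72h replicate 3 and Id2 in all but those without 24h replicate 1 or 24h replicate 2 (adjusted p up to 0.109 and 0.195).

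A part of the interferon genes rose. Of 27 tested interferon gamma target genes, 6 were called higher, 0 lower and 25 lay above 0 (median 0.48), and of 32 tested type I interferon antiviral genes 9 were called higher and 0 lower (median 0.34), with 24 above and 8 below 0. Without 24h replicates 3 and 4 the medians were 0.21 and 0.15. The 6 became 3 without 24h replicate 4 or 72h replicate 1 and 10 without 24h replicate 1, and the 9 became 2 without 24h replicate 3 or 4, 3 without 72h replicate 1 and 4 without 72h replicate 2 or 4. Gbp2, a guanylate-binding protein that acts against intracellular microbes, had 75.5, 72.1, 39.9 and 40.6 CPM at 24h and 139, 115, 106 and 138 CPM at 72h. All 72h libraries were higher, and the low 24h values were again replicates 3 and 4 (1.13, SE 0.23, adjusted p = 0.003). Its relative Gbp5 went from 27.7, 21.3, 14.9 and 10.1 CPM to 49.1, 35.5, 32.5 and 41.8 CPM (1.11, SE 0.25, adjusted p = 0.0052). The immunity-related GTPase gene Irgm2 had 23.2, 22.1, 20.1 and 18.0 CPM at 24h and 38.2, 37.4, 38.1 and 32.4 CPM at 72h (0.81, SE 0.19, adjusted p = 0.0078). Irgm2 overlaps the related gene Igtp. Cxcl9, the chemokine that draws T cells through CXCR3, had 14.1, 15.4, 13.2 and 8.27 CPM at 24h and 31.2, 22.9, 20.4 and 24.7 CPM at 72h (0.97, SE 0.24, adjusted p = 0.01), and its call was lost without 24h replicate 4 or 72h replicate 1 (adjusted p up to 0.0691). In the antiviral list, the RNA sensor genes Ifih1 (0.85) and Ddx58 (0.78) kept their calls in each fit without 1 library. Ifit1 (0.91) and Oasl1 (0.79) did not, Ifit1 without 24h replicate 3 or 24h replicate 4 and Oasl1 also without 72h replicate 1 (adjusted p up to 0.0676 and 0.0819).

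Interferon gamma acts through transcription factor dimers that bind the GAS motif, TTCNNNGAA. The RefSeq promoter windows (build GRCm38.p6, 250 bases before to 50 after the start) were searched for it on both strands, and 4 of the 6 called genes of the list, Irf1, Gbp5, Irgm2 and Icam1, had a match. The share was 11 of 19 over the tested members that have a window and 8.16% over all 7300 tested genes with one. Windows on a chromosome that was left out of the search are not counted, here or in the hypoxia search below. The windows of Gbp5 and Irgm2 are shown because both genes rose, with the motif in capitals. A match describes the letters and is not evidence of binding. Gbp5 lies at chr3:142496684-142496983, plus strand, and Irgm2 at chr11:58214727-58215026, plus strand.
Gbp5: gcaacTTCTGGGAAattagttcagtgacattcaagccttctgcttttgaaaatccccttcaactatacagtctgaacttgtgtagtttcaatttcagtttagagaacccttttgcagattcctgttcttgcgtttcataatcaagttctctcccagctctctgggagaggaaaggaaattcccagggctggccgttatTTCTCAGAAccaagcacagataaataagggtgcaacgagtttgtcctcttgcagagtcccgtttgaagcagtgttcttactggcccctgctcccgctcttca
Irgm2: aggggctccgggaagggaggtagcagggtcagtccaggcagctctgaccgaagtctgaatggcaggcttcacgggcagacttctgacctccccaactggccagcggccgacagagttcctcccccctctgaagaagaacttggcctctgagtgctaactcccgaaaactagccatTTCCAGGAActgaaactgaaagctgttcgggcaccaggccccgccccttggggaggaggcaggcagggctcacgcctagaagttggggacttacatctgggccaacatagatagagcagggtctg

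Antigen presentation genes mostly missed the threshold. All 13 tested MHC class II genes had a log2 fold change above 0 (median 0.46), but 0 were called, and with offsets for length and GC content 2 were. Cd74, the invariant chain that guides class II molecules, had 357, 283, 181 and 156 CPM at 24h and 465, 392, 416 and 590.4 CPM at 72h. The groups did not overlap, and the test just missed (0.93, SE 0.30, adjusted p = 0.051). Its regulator Ciita gave 1.03 (SE 0.35, adjusted p = 0.064) and H2-Ab1, a class II beta chain, 0.27 (SE 0.26). For MHC class I, 1 of 23 tested genes was called, the peptide loading gene Tapbp, which rose by 0.80 (SE 0.19, adjusted p = 0.0073). The share called, 4.35%, was below the 8.68% of all genes tested.

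Several chemokine genes fell, Cxcl2 and Ccl7 among them. Of 24 tested chemokines and receptors, 8 were called lower and 2 higher (Cxcl9 and Cx3cr1), with a median of -0.70, which was -0.54 without 24h replicates 3 and 4 and -0.14 with offsets for length and GC content. The 8 became 2 without 72h replicate 1, 3 without 24h replicate 3 or 72h replicate 4, and 5 without 24h replicate 1, 24h replicate 4 or 72h replicate 2, and the 2 became 0 without 24h replicate 4. Chemokine transcripts are short. Cxcl2, which attracts neutrophils, had 13.2, 14.7, 19.1 and 28.1 CPM at 24h and 5.13, 5.67, 9.83 and 3.10 CPM at 72h. All 72h libraries were lower (-1.75, SE 0.30, adjusted p = 0.00098), and the value with the offsets was -1.45. The monocyte attractant Ccl7 went from 112, 132, 195 and 166 CPM to 66.3, 73.3, 92.3 and 42.1 CPM (-1.15, SE 0.26, adjusted p = 0.006), Ccl9 fell by 1.07, Ccl12 by 1.00 and Ccl2 by 0.75. With the offsets Ccl7 was at -0.46, Ccl12 at -0.22 and Ccl2 at -0.21. Ccl9 lost its call without 24h replicate 3 or 72h replicate 1, Ccl12 without 72h replicate 1 or 72h replicate 4, and Ccl2 without 24h replicate 3 or 4 or 72h replicate 1, 2 or 4 (adjusted p up to 0.0584, 0.0515 and 0.129).

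Among 37 tested NF-kB target and inflammatory genes, 6 were called lower and 4 higher (median -0.15), and the 4 became 2 without 24h replicate 3, 24h replicate 4 or 72h replicate 1. Ptgs2, the inducible cyclooxygenase, had 27.9, 31.5, 32.3 and 37.7 CPM at 24h and 19.5, 17.7, 16.3 and 13.2 CPM at 72h, a clean separation (-0.96, SE 0.19, adjusted p = 0.0029). The survival genes Bcl2a1b (-1.32) and Bcl2a1d (-1.31), with Bcl2a1a (-1.28), fell together. These are near-identical copies that share reads, so they are uncertain singly and count as a single observation. Tnfrsf1b, the second TNF receptor, had 42.5, 35.2, 18.0 and 21.8 CPM at 24h and 66.1, 63.7, 57.9 and 53.2 CPM at 72h (1.03, SE 0.23, adjusted p = 0.0045), opposite to the genes above. Tnfaip2 (1.02), Nfkb1 (0.79) and Icam1 (0.81) were also called higher. Nfkb1 lost its call without 24h replicate 3, 24h replicate 4, 72h replicate 1 or 72h replicate 4 (adjusted p up to 0.0758), and Icam1 without any of these but 72h replicate 4 and also without 72h replicates 2 or 3 (up to 0.126). Il1b had 126, 139, 125 and 134 CPM at 24h and 98.2, 120.4, 111 and 86.4 CPM at 72h, lower in all 4, without passing (-0.33, SE 0.19, adjusted p = 0.29). Il6 (0.89, SE 0.52) and Il10 (-0.67, SE 0.57) were near the detection limit and did not pass.

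Some hypoxia-responsive genes fell while glycolysis genes did not pass. Of 36 tested genes of glycolysis and hypoxia, 6 were called lower (Bnip3, Arg1, Ddit4, Hilpda, Ankrd37 and Bnip3l) and 0 higher, and the median was -0.08, so the fall was that of these genes and not of the whole list. Bnip3, which marks mitochondria for removal, had 46.1, 47.9, 39.0 and 54.3 CPM at 24h and 15.9, 20.7, 23.1 and 18.6 CPM at 72h. The 24h libraries were even, and the fall was -1.27 (SE 0.20, adjusted p = 0.00046), -1.30 without replicates 3 and 4 and -0.88 with the offsets. Ddit4, an inhibitor of mTORC1, went from 8.78, 14.1, 7.80 and 11.2 CPM to 4.46, 4.72, 3.93 and 4.19 CPM (-1.27, SE 0.24, adjusted p = 0.002). Hilpda, which blocks lipid breakdown, went from 6.24, 7.78, 6.17 and 10.1 CPM to 2.23, 2.77, 2.87 and 2.48 CPM (-1.57, SE 0.37, adjusted p = 0.0072). All 3 genes were separated in full. Ankrd37 (-1.33) lost its call without 24h replicate 4 or 72h replicate 4 (adjusted p up to 0.0604) and Bnip3l (-0.78) in each of the 8 fits without a library (up to 0.126). The list holds more hypoxia genes that were not called.

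The core of the hypoxia response element, ACGTG, was searched on both strands of the same windows, where matches on opposite strands can overlap as CACGTG. Bnip3, Ankrd37, Ddit4 and Hilpda, the 4 called genes with a window, all held it, as did 25 of the 32 tested members with a window and 30.6% of all tested genes with a window. The windows of Bnip3 and Ankrd37 are shown as the genes of this list with the lowest p-value and with a pair of separate matches, with the core in capitals. Bnip3 lies at chr7:138909457-138909756, minus strand, and Ankrd37 at chr8:45999801-46000100, minus strand.
Bnip3: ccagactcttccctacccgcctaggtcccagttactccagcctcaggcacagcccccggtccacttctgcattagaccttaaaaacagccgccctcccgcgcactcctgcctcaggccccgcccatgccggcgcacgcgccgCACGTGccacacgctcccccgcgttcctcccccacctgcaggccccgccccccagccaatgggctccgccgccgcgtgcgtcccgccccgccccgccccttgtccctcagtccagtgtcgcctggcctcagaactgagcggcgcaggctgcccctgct
Ankrd37: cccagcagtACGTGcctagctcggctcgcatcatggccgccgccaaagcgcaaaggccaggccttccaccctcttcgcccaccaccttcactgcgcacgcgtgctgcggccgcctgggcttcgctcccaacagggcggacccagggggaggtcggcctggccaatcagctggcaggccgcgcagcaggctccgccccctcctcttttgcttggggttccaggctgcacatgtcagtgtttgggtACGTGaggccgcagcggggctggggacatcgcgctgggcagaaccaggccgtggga

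Of 22 tested tolerance and checkpoint genes, 7 were called higher and 1, Arg1, lower (median 0.03). The 7 became 3 without 24h replicate 3, 24h replicate 4 or 72h replicate 1, and 4 without 72h replicate 2. Tgfb1, the regulatory cytokine, had 26.9, 31.0, 19.4 and 17.2 CPM at 24h and 55.6, 53.9, 44.3 and 44.0 CPM at 72h, all higher (1.07, SE 0.24, adjusted p = 0.0048). Siglec1, a sialic acid receptor of macrophages, had 40.8, 33.9, 25.2 and 24.5 CPM at 24h and 58.6, 64.9, 64.3 and 50.1 CPM at 72h (0.93, SE 0.21, adjusted p = 0.007), and Sirpa, which binds the signal CD47, rose by 0.76. Sirpa lost its call without 24h replicate 3, 24h replicate 4 or 72h replicate 1 (adjusted p up to 0.0802).

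Lipid handling and lysosomal genes were called in both directions. Of 25 tested lipid handling genes 4 were called higher and 5 lower (median 0.05). The 4 became 1 without 24h replicate 3, 24h replicate 4 or 72h replicate 4 and 2 without 72h replicate 1, and the 5 became 3 without 24h replicate 3 or 4. The fatty acid binding protein gene Fabp5 had 80.7, 76.6, 84.7 and 119 CPM at 24h and 48.8, 43.0, 44.9 and 45.8 CPM at 72h (-0.99, SE 0.20, adjusted p = 0.003). The tetraspanin gene Cd9, a marker of lipid-associated macrophages, had 10.3, 12.04, 10.2 and 8.34 CPM at 24h and 3.44, 5.04, 3.33 and 3.69 CPM at 72h (-1.37, SE 0.31, adjusted p = 0.0068). Both genes separated the times. Spp1, which encodes osteopontin, fell by 0.88. Fabp4 was called lower (-1.83) at a level of 0.235 to 1.94 CPM, and lost the call in all fits without 1 library but those without 24h replicate 1 or 72h replicate 3 (adjusted p up to 0.161).

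Of 40 tested lysosomal genes 5 were called higher and 2 lower (median 0.20). Over all genes tested the shares were 4.92% higher and 3.76% lower, so the lower calls were near the general share. The 5 became 2 without 24h replicate 3, 24h replicate 4 or 72h replicate 1. Man2b1, which encodes a hydrolase of glycan chains, rose by 1.27. It had 16.1, 18.5, 13.1 and 10.1 CPM at 24h and 33.2, 33.8, 38.1 and 34.4 CPM at 72h. Cathepsin gene Ctsl (-0.66) and the endosomal tetraspanin gene Cd63 (-0.79) were called lower. Ctsl lost its call in all fits without 1 library but those without 24h replicate 1 or 72h replicate 1, and Cd63 without 24h replicate 3 or 24h replicate 4 (adjusted p up to 0.142 and 0.0772). Of 19 tested iron and haem genes, the transferrin gene Trf (1.16) was called higher, and 3 were called lower, Slc40a1, the transferrin receptor gene Tfrc (-1.01) and the bilirubin-forming enzyme gene Blvra (-0.73). Tfrc was high in 24h replicates 3 and 4 (17.1 and 20.6 CPM) and not in replicates 1 and 2 (8.08 and 9.97 CPM), against 4.69 to 8.42 CPM at 72h, and its value without replicates 3 and 4 was -0.41. Tfrc lost its call without any library but 24h replicates 1 or 2, and Blvra without any but 24h replicate 4 (adjusted p up to 0.211 and 0.175).

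Many ribosomal protein genes and some respiratory chain genes fell. Of 80 tested ribosomal protein genes 32 were called lower and 0 higher (median -0.52, 74 below 0), and of 81 tested respiratory chain and ATP synthase genes 15 were called lower and 0 higher (median -0.38). The 32 became 9 without 72h replicate 1, 10 without 72h replicate 4, and 21, 11 and 16 without 24h replicates 2 to 4 in turn, and the 15 became 4 and 6 without 72h replicates 1 and 4 and 5 and 8 without 24h replicates 3 and 4. These medians were -0.53 and -0.43 without 24h replicates 3 and 4, and -0.33 and -0.08 with offsets for length and GC content. Ribosomal protein genes took 4.07 to 4.34% of the counts outside Rn45s at 24h and 2.33 to 3.24% at 72h, without overlap. Rps12 went from 43.0, 54.2, 73.9 and 56.8 CPM to 16.2, 29.9, 26.6 and 20.5 CPM (-1.29, SE 0.23, adjusted p = 0.0012), although the small nucleolar RNA genes Snora33 and Snord100 lie inside it. Ndufb9, a subunit of complex I, had 23.6, 30.4, 35.9 and 29.3 CPM at 24h and 13.7, 16.1, 15.6 and 9.29 CPM at 72h (-1.13, SE 0.22, adjusted p = 0.0026).

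Among the pathway lists histone genes had the lowest median: 30 of 71 tested were called lower and 1 higher, the variant histone gene H2afy, with a median of -0.83, which was -0.66 without 24h replicates 3 and 4. The 30 became 13 and 17 without 24h replicates 3 and 4 in turn, and 18 and 15 without 72h replicates 1 and 4. Histone genes took 1.29 to 1.68% of the counts outside Rn45s at 24h and 0.685 to 0.851% at 72h. Most histone genes are near-identical copies whose reads cannot be assigned with certainty. Hist2h2ac had 13.7, 17.6, 28.3 and 18.0 CPM at 24h and 7.75, 8.60, 10.1 and 6.74 CPM at 72h (-1.23, SE 0.22, adjusted p = 0.0012). Small nucleolar RNA genes, which lie inside host genes and are mostly very short, had 60 of 60 tested members below 0 (median -0.76), and 7 were called. The 7 became 0 without 24h replicate 4, 2 without 24h replicate 3, 1 without 72h replicate 1 or 4 and 15 without 72h replicate 3. Scarna13, a small Cajal body RNA, had the largest fall among genes at a log2 CPM of 4 or more whose groups did not overlap, from 20.3, 25.3, 35.2 and 38.7 CPM to 5.68, 14.2, 11.3 and 6.17 CPM (-1.69, SE 0.32, adjusted p = 0.0019). With offsets for length and GC content, the medians were -0.39 for histone genes with 6 called lower, and 0.07 for small nucleolar RNA genes with 0 called.

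**Figure D3:**
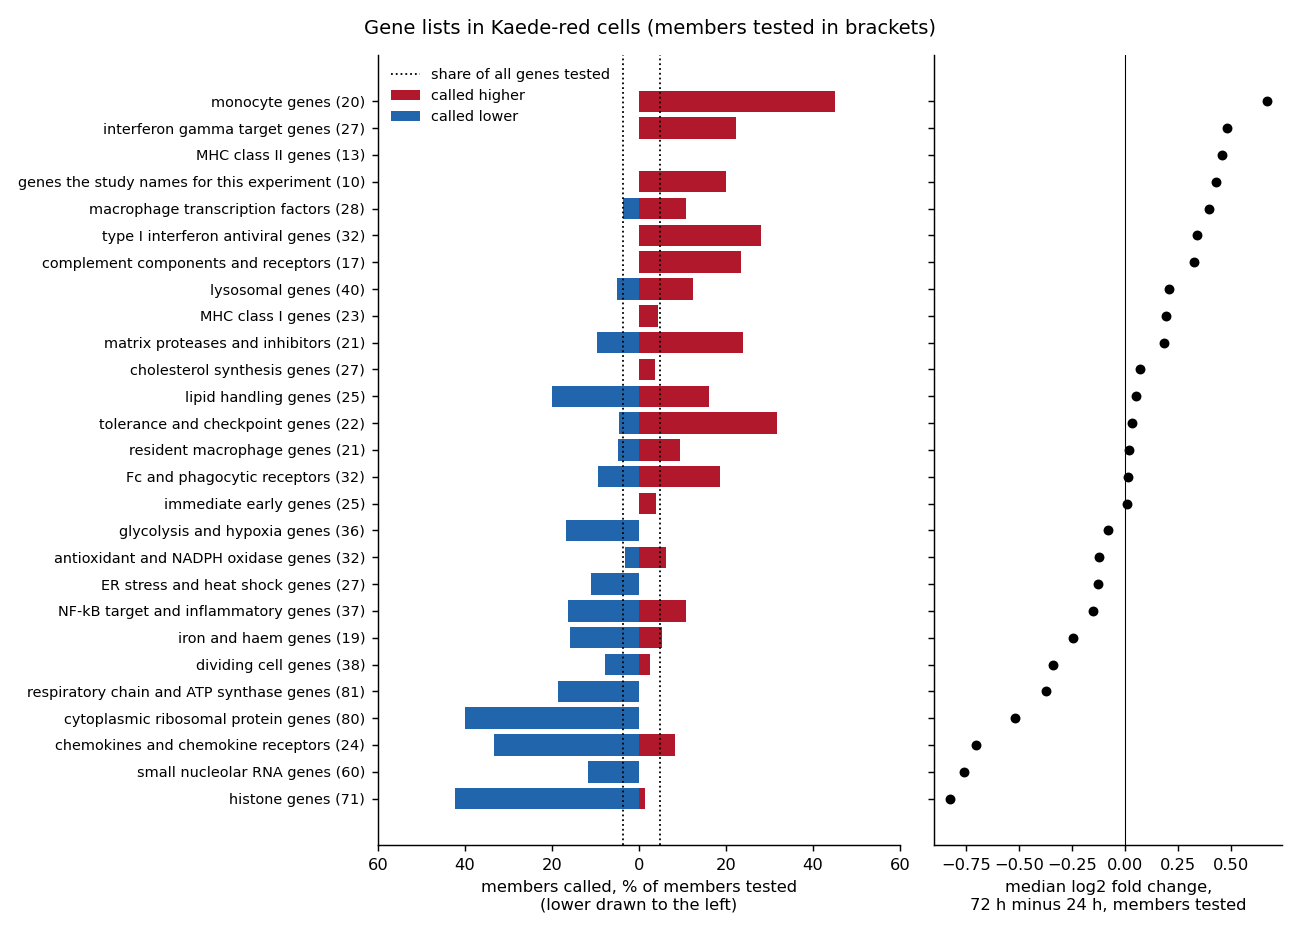
For each pathway list, and the genes that the study names, with the number of tested members in brackets, the left panel gives the percentage of tested members called higher (red, right) or lower (blue, left) at 72h in Kaede-red cells, with the shares of all genes tested (4.92% and 3.76%) as dotted lines, and the right panel gives the median log2 fold change. Monocyte genes lie at the top with a median of 0.67 and histone genes at the bottom with -0.83.

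Length and GC content of genes moved with these changes. Called genes had a median exonic length of 5870 bases and a GC content of 52.5% when higher, and of 2370 bases and 46.5% when lower, against 4601 bases and 49.2% over all genes tested. Across 9589 genes, which are not independent replicates, Spearman's rho between the Kaede-red log2 fold change and length was 0.22, and with GC content it was 0.22. In Kaede-green cells the values were 0.07 and 0.03. Of 10 equal groups of genes by length, the group with the shortest exons had a median log2 fold change of -0.43, with 14.0% called lower and 1.36% higher, and the group with the longest 0.13, with 1.15% lower and 6.57% higher. With offsets for both properties 489 genes were called (289 higher, 200 lower), 376 of them among the 837. The part of RNA quality or library preparation in this was not tested.

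**Figure D4:**
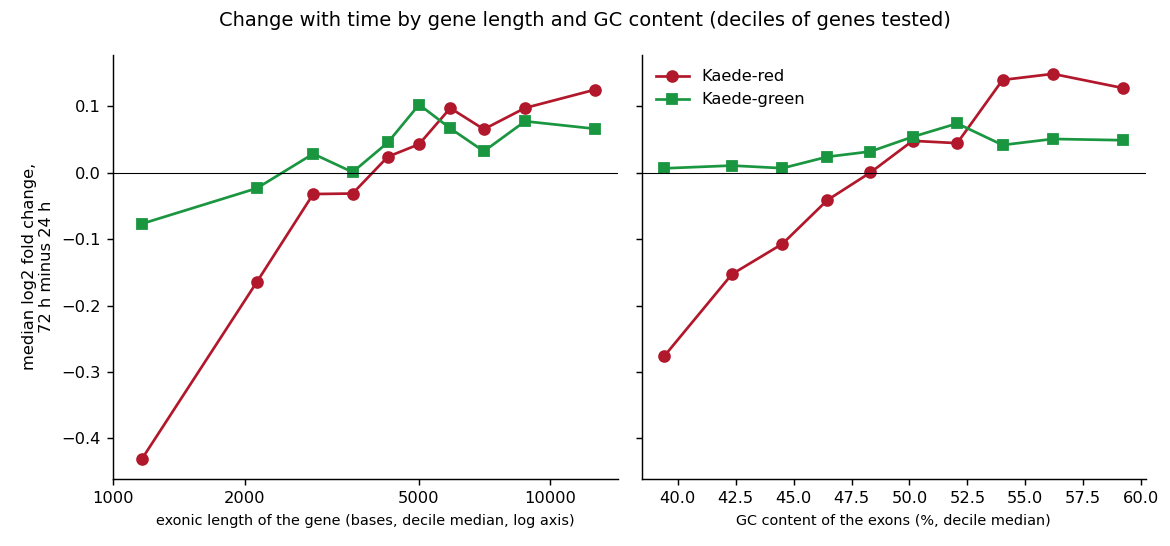
Median log2 fold change from 24h to 72h in 10 equal groups of the tested genes ordered by exonic length (left, log axis) or GC content (right), for Kaede-red (circles) and Kaede-green (squares) cells. The Kaede-red median runs from -0.43 in the shortest to 0.13 in the longest genes, and the Kaede-green median from -0.08 to 0.07. By GC content the Kaede-red median runs from -0.28 in the lowest to 0.13 in the highest group, and the Kaede-green median from 0.01 to 0.05. In some of the groups in between Kaede-green lies farther from 0.

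Fibroblast and cell division genes were high mainly in 24h replicates 3 and 4. Of 10 tested fibroblast markers 5 were called lower at 72h (Col6a2, Col3a1, Col5a1, Col6a1 and Sparc), which became 2 without 24h replicate 3 or 4 or 72h replicate 1 or 2 and 3 without 72h replicate 4, and the median was -0.79, which was -0.16 without these libraries. The collagen gene Col5a1 had 8.78, 11.1, 24.7 and 24.6 CPM at 24h and 9.79, 8.09, 8.92 and 9.75 CPM at 72h, so that replicates 1 and 2 were at the level of the 72h group, and its value without replicates 3 and 4 was -0.15. Of 38 tested genes of dividing cells 3 were called lower and 1 higher (median -0.34, 0.01 without those libraries). The share called, 10.5%, was near the 8.68% of all genes tested. The 3 became 0 without 24h replicate 3 or 4 or 72h replicate 1 or 2, 1 without 72h replicate 3 and 6 without 24h replicate 1. The proliferation marker gene Mki67 had 8.78, 9.85, 21.6 and 23.3 CPM at 24h and 7.59, 7.31, 8.47 and 12.02 CPM at 72h (-0.83, SE 0.27, adjusted p = 0.047), and -0.10 without replicates 3 and 4. The part of fibroblast RNA in other genes that follow these libraries was not tested.

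The other fixed lists gave few calls, apart from the matrix list. The share called was 11.1% for ER stress and heat shock, 4% for immediate early, 3.7% for cholesterol synthesis and 33.3% for matrix genes. Over all genes tested it was 8.68%. Of 27 tested ER stress and heat shock genes 3 were called lower (Hspe1, Hspa1a and Hspa1b) and 0 higher. Hspa1a (-1.06, adjusted p = 0.047) lost its call in 6 of the 8 fits without a single library, all but those without 24h replicate 3 or 72h replicate 3 (adjusted p up to 0.182), and with DESeq2. Of 25 tested immediate early genes 1 was called higher (Fosl2, 0.76, lost without 24h replicate 2, 24h replicate 3 or 72h replicate 1), and of 27 tested cholesterol synthesis genes 1 was called higher and 0 lower. Of 21 tested matrix proteases and inhibitors 5 were called higher and 2 lower, with Mmp14 at 1.02 and Mmp19 at 1.25. Immediate early genes respond within minutes to tissue handling. Their median was 0.01, with members from -1.10 to 0.76, and it was -0.48 in Kaede-green cells. The part of tissue handling in these data was not tested.

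Whether a change belonged to the retained cells was asked by testing the change in Kaede-red minus that in Kaede-green cells. It was called for 73 genes (0.757%), 41 (0.425%) higher and 32 (0.332%) lower in Kaede-red. Of these genes 63 were also called in Kaede-red cells, and for 69 the log2 fold changes of the 2 colours had opposite signs. Opposite signs are largely built in, since the 73 genes were selected for a large difference. In Kaede-green cells alone 0 genes were called by edgeR, with 835 at an unadjusted p under 0.05 and fewer counts outside Rn45s (468092 to 912689 per library). Rgs1 gave the smallest p of the genes named: it fell by 1.64 in Kaede-red cells and had 0.61 in Kaede-green cells (difference -2.25, SE 0.32, adjusted p = 0.00048). Ms4a7, a macrophage membrane protein gene, had 74.7, 108, 108 and 98.9 CPM at 24h and 42.3, 58.1, 49.2 and 36.9 CPM at 72h in Kaede-red cells, with -1.06 in red and 0.61 in green. The monocyte genes Vcan (difference 1.98), Hp (1.89) and Itga4 (1.38), with Ace (2.95), Itgal (1.75) and Ly6c1 (1.72), were higher in Kaede-red. Ly6c1 is not in the monocyte list, and its Kaede-red groups overlapped. Ly6c2, which is in the list, gave 1.14 and missed the threshold of the same test (adjusted p = 0.11). Of the 20 tested monocyte genes, 6 were called higher in this contrast. Fabp5 (-1.32), Cd63 (-1.28) and Bcl2a1a (-1.68) were lower in Kaede-red. Bcl2a1b, which shares reads with Bcl2a1a, missed the threshold of this test (-1.31, adjusted p = 0.061). The falls of Arg1, Hilpda and Slc40a1 were not shown to differ between the colours (adjusted p = 0.31, 0.99 and 0.49), with -0.61, -1.56 and -1.06 in Kaede-green cells. The number called for the difference was 1 without 24h replicates 3 and 4, and leaving out 1 library gave 2 without 24h replicate 3, 5 without 24h replicate 4, 6, 11, 40 and 24 without 72h replicates 1 to 4 in turn, and 155 without 24h replicate 1.

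**Figure D5:**
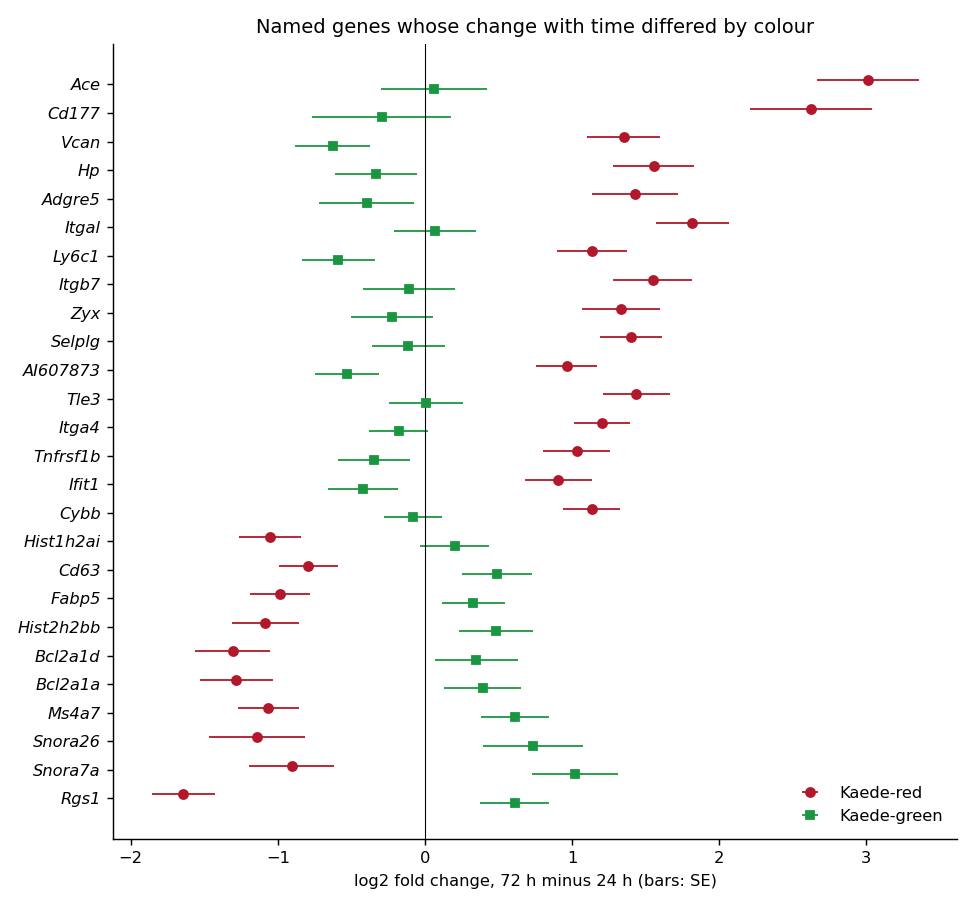
Log2 fold change from 24h to 72h with its SE (bars) in Kaede-red (circles) and Kaede-green (squares) cells for the named genes whose change differed between the colours at an adjusted p under 0.05. Kaede-red values lie on 1 side of 0 with a size of 0.79 to 3.01, and Kaede-green values lie near 0 or on the other side.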

How the data were processed

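Total RNA of sorted cells was made into stranded libraries from 5 ng of RNA. Per the labels, the authors used Trim Galore for trimming, FastQC for quality, HISAT2 with the mm10 genome for alignment and featureCounts for counting per gene; versions and the strand setting are not given in the sources used here. The deposited values are raw counts for 24421 genes, and 0 columns were left unused. Genes kept by filterByExpr were tested with edgeR 4.0.16 in R 4.3.3 (TMM factors, quasi-likelihood test, 1 mean per group over all 16 libraries), with Benjamini-Hochberg adjustment over 9642 genes and calls under 0.05. CPM values, the usual rescaling of counts to library size, were scaled by TMM with Rn45s in the library size, so they are low. Positions and lengths come from GENCODE for GRCm38, matched for 98.5% of genes, and promoter windows from RefSeq.

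Named genes were the 15 largest rises and falls without overlap between the times and at a log2 CPM of 4 or more, the 10 genes that the study names, up to 4 called members per list and direction, and 5 genes per direction of the contrast between colours; others are marked or come from the lists. The members, lists and rules were chosen with earlier results of these data known. The fit was also run on simulated independent counts with planted changes. These counts held no 24h pairs and no trend with gene length or GC content, so that run is no support for the calls. Alternatives were DESeq2 1.42.0, other factors and filters, a replicate block, fewer libraries, thinning, Rn45s as covariate or removed, and, chosen after seeing the data, offsets for GC content and length and leaving out pairs of 24h libraries. Mitochondrially encoded genes were not analysed here, and a few genes that the rule names are not reported here. Among Kaede-red libraries of the same time no pair was a copy (chi-square per gene of 3.21 to 95.6). The closest were 24h replicates 1 and 2 (3.21) and 24h replicates 3 and 4 (5.66), while the other 24h pairs gave 33.5 to 78.4. Whether a close pair shared a tumour or preparation was not tested. Kaede-green libraries and pairs across groups were not compared. The p-values rest on a spread estimated over all 16 libraries, treated as independent, and not on the Kaede-red tumours alone. The median SE was 0.32, and 0.26 in the fit of the Kaede-red libraries alone. Counting error alone limits genes of a few CPM.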

Additional observations from a re-analysis of the deposited data

Results flagged for a closer look

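Change with time differed between Kaede-red and Kaede-green cells for 26 named genes by the test of the difference itself (edgeR, adjusted p under 0.05). The Kaede-red minus Kaede-green log2 fold change was above 0 for Ace (2.95), Cd177 (2.92), Vcan (1.98), Hp (1.89), Adgre5 (1.82), Itgal (1.75), Ly6c1 (1.72), Itgb7 (1.66), Zyx (1.56), Selplg (1.51), AI607873 (1.49), Tle3 (1.43), Itga4 (1.38), Tnfrsf1b (1.38), Ifit1 (1.33) and Cybb (1.21). It was below 0 for Rgs1 (-2.25), the small nucleolar RNA genes Snora7a (-1.93) and Snora26 (-1.88), Ms4a7 (-1.68), Bcl2a1a (-1.68), Bcl2a1d (-1.66), the histone genes Hist2h2bb (-1.57) and Hist1h2ai (-1.26), Fabp5 (-1.32) and Cd63 (-1.28). Bcl2a1a and Bcl2a1d share reads and count as a single observation.

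In 11 of 304 groups of 4 Kaede-red libraries 1 library lay far from the others, a number that chance alone could give, since it flags about 1 in 20. At 24h replicate 4 had the highest total, 13009918 counts, the lowest CPM of Mmp14 (23.8), Sepn1 (14.0) and Sepp1 (93.7), and the highest of Snord34 (18.2). Replicate 1 at 24h had the highest Ly6c1 (35.5 CPM) and the lowest Spn (3.60 CPM). At 72h replicate 3 had the lowest Pparg (1.97 CPM) and the highest Mmp19 (17.8 CPM), replicate 2 the highest Rps27l (9.08 CPM), and replicate 4 the lowest Irgm2 (32.4 CPM).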

How the results depend on the processing

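The 837 calls (474 higher, 363 lower) became 1263 (614 and 649) with DESeq2, 1604 (890 and 714) in a fit of the Kaede-red libraries alone, 489 (289 and 200) with GC and length offsets, 110 (77 and 33) with the Rn45s share as a covariate, 9 (7 and 2) with scaling by library size only and 9 (2 and 7) without Kaede-red 24h replicates 3 and 4. The share of calls that were higher was 56.6%, and it was 48.6% with DESeq2, 46.7% with RLE factors, 77.8% with library size only and 70% with the covariate. Leaving out 1 library gave 280 to 854 calls, 169 to 492 higher and 111 to 362 lower. The difference between colours, 73 genes, gave 321 with DESeq2, 216 with no filter, 156 with at least 10 counts in every library, 34 with the covariate, 1 with library size only, 287 without 24h replicates 1 and 2, 1 without replicates 3 and 4, and 2 to 155 without 1 library. The cause was not tested. Scaling by library size only moved the median of all genes by 0.42, and time then took 22.9% of the variance (exact permutation p = 0.171).

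The replicate numbers do not pair mice between the times, since the mice differed. Correlations of same-numbered libraries were 0.0677, 0.0446, 0.0711 and 0.138, all above 0. Those of libraries with different numbers ran from -0.0909 to 0.0583 and were mostly below 0. Whether same-numbered libraries shared a sort or preparation was not tested. A replicate block gave 877 calls, 795 of them shared. Of the named genes, none of them called, some turned sign: Il1b (0.032), Mrc1 (0.16) and Fcgr4 (0.28) with library size only; Fcgr4 (0.27) and Nr4a1 (-0.014) with GC and length offsets; C1qa (-0.061) and H2-Ab1 (-0.074) with the covariate; C1qa without 24h replicate 4 (-0.035); and C1qa (-0.17) and Ccr2 (-0.12) without 24h replicates 3 and 4. Without 1 library, log2 fold changes of named genes ran from -4.83 (Gm16973) to 3.62 (Ace).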
